A study of Mus musculus with 23 samples.

Results

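Microglia are the resident macrophages of the brain, and 10 genes that mark them were followed across the hippocampus of WT mice and of mice with an extra copy of a segment of chromosome 16. The genes are Tmem119, Ctss, P2ry12, Cx3cr1, Csf1r, Aif1, C1qa, C1qb, C1qc and Trem2, taken by symbol from the 21785 genes of the deposited table, and all 10 had values and passed the filter on low values. Against WT, Dp16 hippocampus had 0.832-fold the Tmem119 level (8.0 ± 0.723 RPKM, SD, n = 7, against 9.61 ± 0.480, n = 5) and 1.18-fold the Ctss level (41.5 ± 2.56 against 35.1 ± 2.59), while the other 8 genes did not pass the test. In the libraries with the label Dp16/D-KO, Tmem119 lay near WT and Ctss lay between WT and Dp16. None of the 10 genes passed the test there, against WT or against Dp16. Neither change in Dp16 passed it within either batch alone or without the WT library F1.

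Microglia depend on CSF1R, the receptor of the growth factors CSF1 and IL-34, for survival, and they watch neurons through CX3CR1, the receptor of neuronal fractalkine, and P2RY12, a receptor of extracellular ADP that guides their processes. They make the 3 chains of C1q, which opens the classical complement pathway and tags synapses for removal. TREM2 is a lipid-sensing receptor of the microglial surface, AIF1 (also called IBA1) an actin-binding protein used as a stain, cathepsin S (CTSS) a lysosomal and secreted protease that also processes antigen-presenting molecules, and TMEM119 a membrane protein used to tell microglia from other macrophages.

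The series holds 23 libraries of hippocampal messenger RNA in 4 groups. WT mice (n = 5) are wild type, and Dp16 mice (n = 7) carry Dp(16)1/Yey, a duplication of the segment whose human counterpart lies on chromosome 21, used as a model of Down syndrome. The libraries with the label Dp16/D-KO (n = 6) should, by that label, carry the same duplication with a Dyrk1a knockout allele, and those under the label Dp16;D-KO/K-KO (n = 5) the duplication with knockout alleles of Dyrk1a and Kcnj6. By the labels every group but WT therefore holds the duplication. There are 2 batches by the labels. Batch 1 has 10 libraries on C57BL/6 at 2 to 3 months, labelled total RNA and sequenced with reads of 50 bases, and batch 2 has 13 libraries on a background over 90% C57/B6, labelled polyA RNA, with no age in the labels used here. Both batches were enriched with oligo(dT) beads, and every group has libraries in both.

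Some values did not follow the labels of their libraries. Dyrk1a and Kcnj6 were both higher in Dp16 than in WT (log2 change 0.52 and 0.55), yet neither was detectably lower in the libraries labelled with its knockout than in Dp16 (Dyrk1a -0.01 in Dp16/D-KO, adjusted p = 0.935; Kcnj6 -0.06 in Dp16;D-KO/K-KO, adjusted p = 0.822, limma with Benjamini-Hochberg adjustment). Gene-level RPKM cannot tell reads of a disrupted copy from those of an intact one. These values therefore do not show that the genotype labels are wrong, and the groups are called libraries so labelled. By the Y-linked gene Ddx3y, the WT library F1 (12.65 RPKM) did not match its letter F. Likewise the WT library M3 (0.01 RPKM) did not match its letter M. The tests of Ctss against WT are therefore also given without both libraries, and so are those of Tmem119 except in Dp16;D-KO/K-KO. The table gives RPKM, reads scaled to gene length and library size, and the depth read from the steps between low values was 14.65 to 17.40 M reads per library, a rough estimate. Nothing in the labels says whether libraries came from separate animals, so the p-values measure the spread between these libraries.

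The promoters of 3 of the genes are shown, Ctss because it differed between Dp16 and WT and C1qb and C1qc because they are neighbours whose levels varied together after removal of genotype and batch. Each is 300 bases, 250 before to 50 after the RefSeq start, read 5′ to 3′ on the strand of the gene (RefSeq, build GRCm38.p6). Ctss lies on the plus strand at chr3:95526536-95526835, and C1qb and C1qc lie on the minus strand at chr4:136886151-136886450 and chr4:136892865-136893164. Capitals mark AGGAAGT, the core bound by ETS factors such as the myeloid regulator PU.1, on either strand (it reads ACTTCCT where it lies on the opposite one), and GAAA repeated after a gap of 2 bases of any kind, a core of interferon response elements.
Ctss: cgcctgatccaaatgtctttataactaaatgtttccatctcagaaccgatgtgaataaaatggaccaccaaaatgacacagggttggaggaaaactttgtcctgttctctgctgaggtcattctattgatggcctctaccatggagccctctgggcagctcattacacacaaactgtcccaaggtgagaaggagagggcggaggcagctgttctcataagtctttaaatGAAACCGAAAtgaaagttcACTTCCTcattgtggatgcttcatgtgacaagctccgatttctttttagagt
C1qb: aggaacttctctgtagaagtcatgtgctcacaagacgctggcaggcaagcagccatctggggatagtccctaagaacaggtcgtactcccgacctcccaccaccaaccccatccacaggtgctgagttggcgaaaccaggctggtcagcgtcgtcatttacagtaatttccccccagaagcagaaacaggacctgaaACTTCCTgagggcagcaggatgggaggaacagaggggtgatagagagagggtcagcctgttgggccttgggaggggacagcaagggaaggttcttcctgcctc
C1qc: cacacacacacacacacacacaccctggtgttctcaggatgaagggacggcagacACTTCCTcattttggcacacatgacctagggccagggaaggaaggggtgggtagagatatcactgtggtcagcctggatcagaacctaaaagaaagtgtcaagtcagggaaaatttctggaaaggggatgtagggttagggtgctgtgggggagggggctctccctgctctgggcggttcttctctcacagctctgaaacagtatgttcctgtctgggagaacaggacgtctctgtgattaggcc
Promoters of 7 of the 10 genes were matched by symbol, and those of Tmem119, Csf1r and C1qa were not. AGGAAGT stood in 4 of the 7, namely P2ry12, Ctss, C1qb and C1qc, and in 9.35% of 32851 promoters of the same length. The longer form GAGGAAGT, which contains it, stood in Ctss and C1qc and in 3.20% of all promoters. The gapped GAAA repeat stood, on either strand, in Ctss and Aif1 and in 3.44% of all. In Ctss the 2 motifs lie next to each other at the start, from -21 to -12 and from -2 to 5. In C1qb and C1qc AGGAAGT lies on the opposite strand, from -53 to -47 and from -195 to -189. These matches describe the letters of the windows and say nothing of binding.

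The microglial genes spanned a 15.8-fold range of mean RPKM in WT, from Aif1 to C1qa. C1qa was highest at 41.9 ± 2.25 RPKM (SD, n = 5), followed by C1qb at 37.4 ± 2.98, Ctss at 35.1 ± 2.59 and C1qc at 32.6 ± 6.29. Csf1r followed at 23.5 ± 2.24 RPKM, and then P2ry12 at 11.8 ± 2.42, Cx3cr1 at 11.2 ± 1.78, Tmem119 at 9.61 ± 0.480, Trem2 at 7.28 ± 0.823 and Aif1 at 2.65 ± 0.225. C1qc exceeded Csf1r, Csf1r exceeded P2ry12 and Trem2 exceeded Aif1 in all 23 libraries. The neighbours among the first 4 genes did not keep their order, since C1qa exceeded C1qb in 15 of 23 libraries, C1qb exceeded Ctss in 13 and Ctss exceeded C1qc in 17. P2ry12 exceeded Cx3cr1 in 8 of 23 libraries only, against the order of their WT means. Aif1 rested on an estimated median of 39 reads per library and Trem2 on 122, which gives a counting error of 16.1% and 9.06%, and the other 8 rested on 341 to 1879 reads (2.31% to 5.42%).

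**Figure D1:**
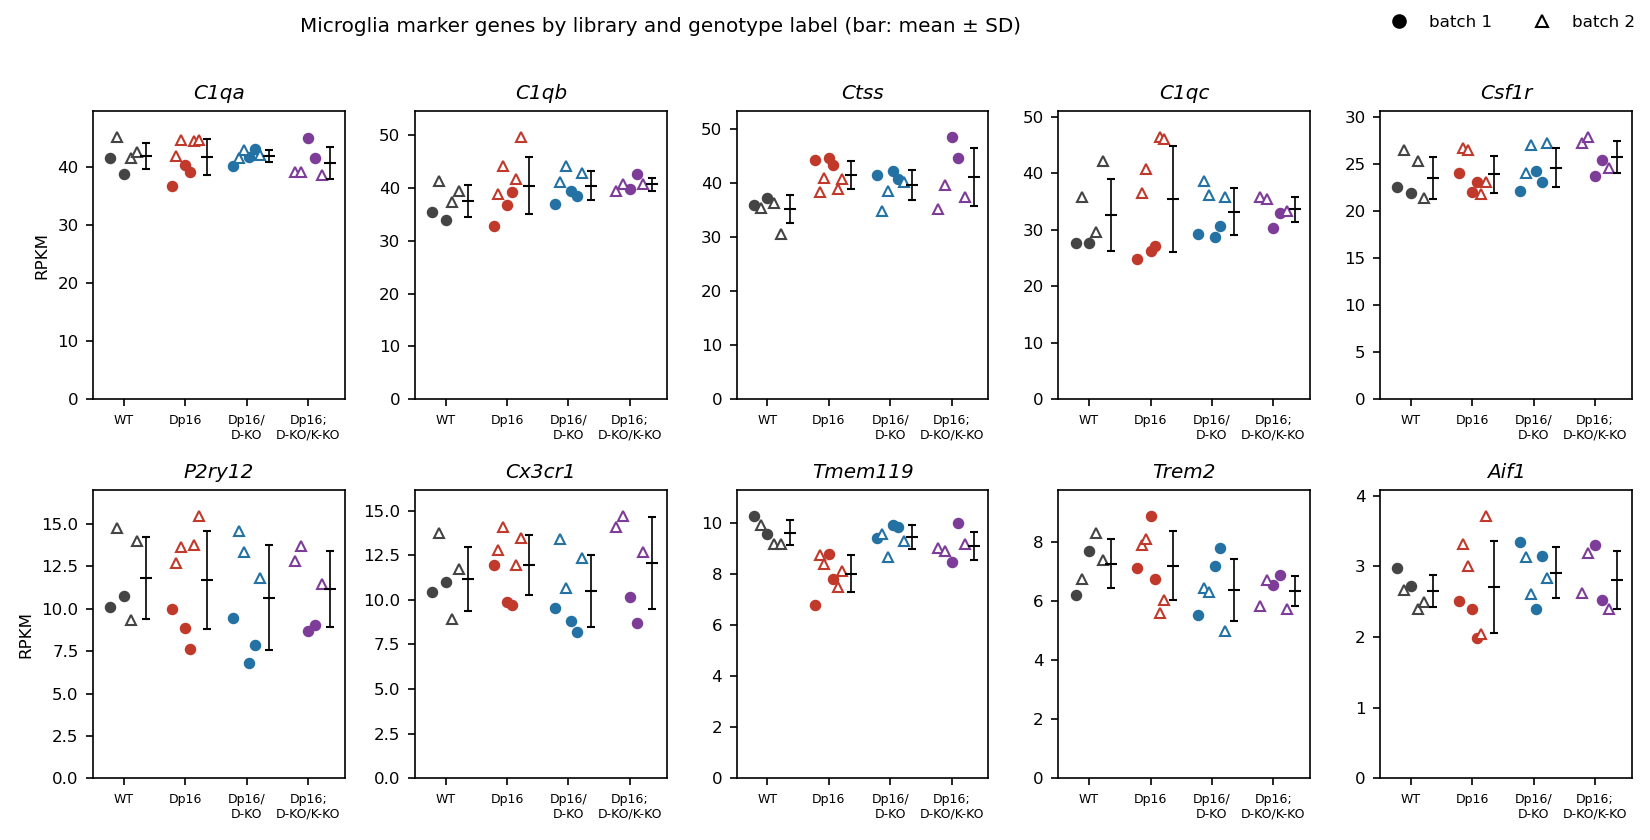
RPKM of each gene (vertical axis, from 0) in every library of the 4 genotype labels (horizontal axis), with circles for batch 1, triangles for batch 2 and a bar for the group mean ± SD. Tmem119 is lower in all 7 Dp16 libraries than in the 5 WT libraries and Ctss is higher in all 7, while most batch 2 libraries lie above those of batch 1 for P2ry12, Cx3cr1 and C1qc, WT M3 being an exception in all 3.

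Dp16 was compared with WT to ask what the duplication changes in the microglial genes. Tmem119 RPKM was 10.25 in WT F1, 9.92 in F2, 9.56 in M2, 9.16 in M3 and 9.15 in M4. In the 7 Dp16 libraries it ran from 6.77 to 8.76 with a median of 8.11. All 7 Dp16 libraries lay below all 5 WT libraries. The log2 change was -0.26 (SE 0.06, 95% interval -0.39 to -0.14), and it was called by limma with Benjamini-Hochberg adjustment over all 13971 genes tested (adjusted p = 0.0287). Tmem119 lies at chr5:113793729-113800358 (mm10).

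Ctss RPKM was 35.93 in WT F1, 35.40 in F2, 37.25 in M2, 36.37 in M3 and 30.65 in M4. In Dp16 it ran from 38.25 to 44.65 with a median of 40.9, and again the groups did not overlap. Its log2 change was 0.24 (SE 0.05, 95% interval 0.14 to 0.34, limma adjusted p = 0.0121). Ctss lies at chr3:95526786-95556405 (mm10). Of all genes tested in Dp16 against WT, 1.45% were called and 0.837% had groups that did not overlap, and Tmem119 and Ctss are the 2 of the 10 microglial genes that did both. In the authors' deposited table the log2 fold change was -0.25 for Tmem119 (adjusted p = 0.0434) and 0.28 for Ctss (adjusted p = 5.18e-07). In bulk tissue a change in the number of microglia and a change in the RNA of each cannot be told apart.

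The other 8 microglial genes had groups that overlapped, and none passed the test. C1qb, C1qc and Cx3cr1 each had a log2 change of 0.11, with 95% intervals of -0.01 to 0.23, -0.08 to 0.29 and -0.07 to 0.28. C1qa stood at -0.01 (-0.11 to 0.10), Csf1r at 0.02 (-0.09 to 0.14), P2ry12 at -0.02 (-0.23 to 0.19), Trem2 at -0.03 (-0.26 to 0.21) and Aif1 at -0.00 (-0.27 to 0.26). The intervals of C1qa and Csf1r leave room for the smallest changes, and those of Aif1, Trem2 and P2ry12 for the widest. The median of the 10 genes was 0.01, beside -0.01 over all genes tested. Levels were also taken relative to the mean log2 level of the other 8 genes in the same library. Tmem119 then averaged -0.67 in WT (-0.82 to -0.48) and -0.97 in Dp16 (-1.15 to -0.69). Ctss averaged 1.20 in WT (0.93 to 1.36) and 1.41 in Dp16 (1.18 to 1.71). On this measure the groups overlapped for both genes. The 8 are the genes that were not called, and batch was not removed, so these values are a description.

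Both calls rested on the pooled batches. Within batch 1 the log2 change from WT to Dp16 was -0.37 for Tmem119 (limma adjusted p = 0.327) and 0.27 for Ctss (0.128), and within batch 2 it was -0.21 (0.309) and 0.22 (0.335). Without the WT libraries F1 and M3, Tmem119 had a change of -0.25 (adjusted p = 0.174) and Ctss one of 0.26 (adjusted p = 0.0349). Without WT F1 alone neither gene was called (the smaller adjusted p was that of Ctss, 0.056), and without WT F2, Dp16 M2 or Dp16 M3 Ctss was called and Tmem119 was not. Neither was called when batch was left out of the model (smaller adjusted p = 0.0529).

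**Figure D2:**
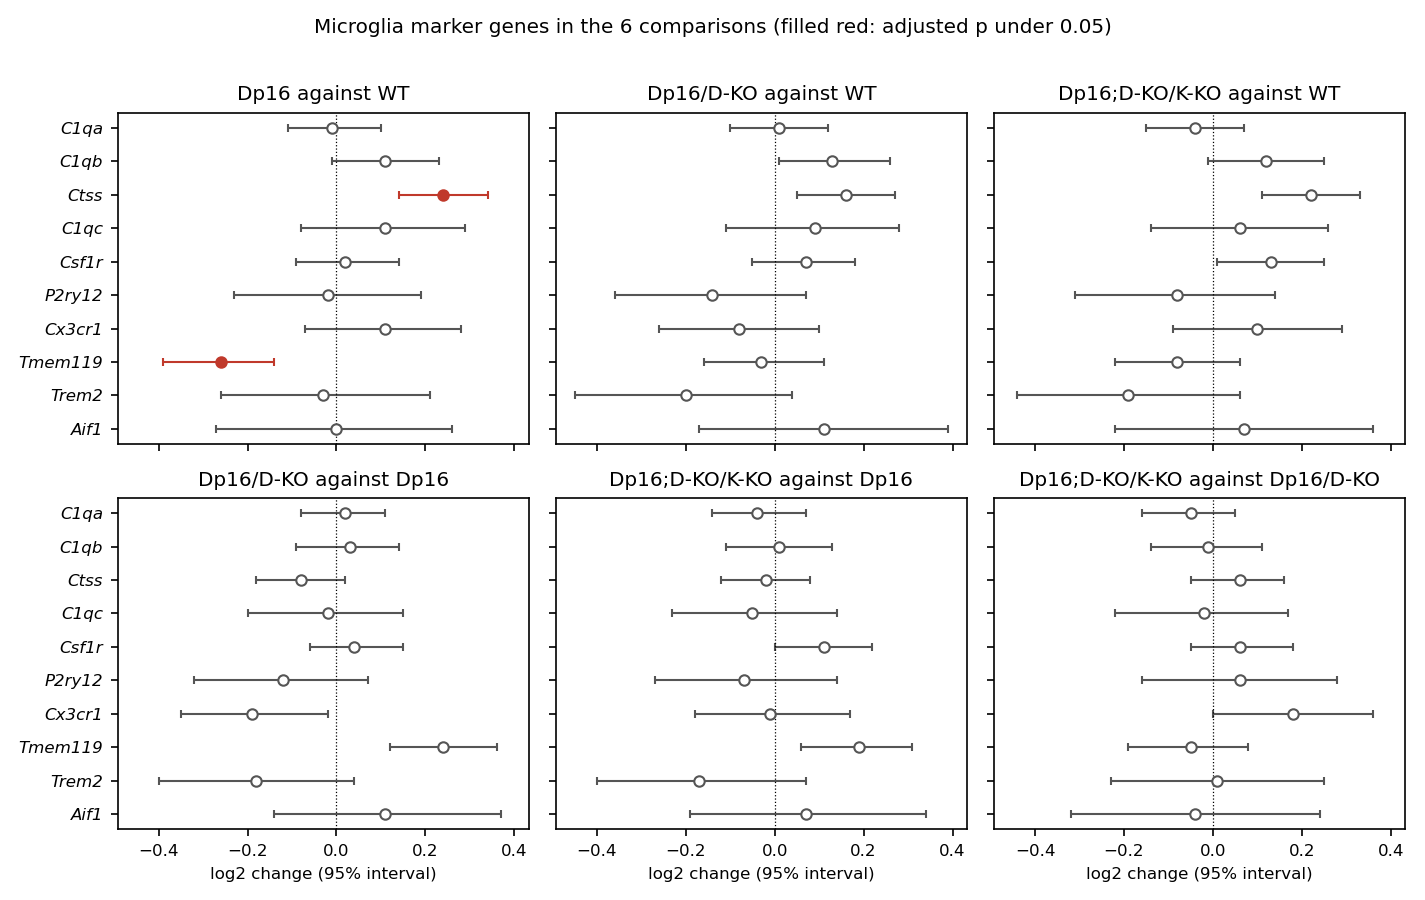
Log2 change of each gene (horizontal axis, point with its 95% interval) in the 6 comparisons of genotype labels, with filled red points where the adjusted p was under 0.05. Only Tmem119 (-0.26) and Ctss (0.24) in Dp16 against WT are filled.

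The libraries with the label Dp16/D-KO were compared with Dp16 to ask what changes when a Dyrk1a copy is removed by label. Tmem119 ran from 8.66 to 9.92 RPKM with a median of 9.49, and 5 of these 6 libraries lay above all 7 Dp16 libraries. Its log2 change was 0.24 (SE 0.06, 95% interval 0.12 to 0.36), and it did not pass the test (limma adjusted p = 0.0777). Ctss ran from 34.79 to 42.29 RPKM with a log2 change of -0.08 (-0.18 to 0.02). Cx3cr1 had the most negative value, -0.19 (-0.35 to -0.02, adjusted p = 0.277), and Trem2 followed at -0.18 (-0.40 to 0.04). P2ry12 stood at -0.12, Aif1 at 0.11, Csf1r at 0.04, C1qb at 0.03, C1qa at 0.02 and C1qc at -0.02. None of the 10 genes was called (2 at an unadjusted p under 0.05), and 0.143% of all genes were. Over all genes, 2119 of 13971 had an unadjusted p under 0.05 in limma. The Dp16 libraries are shared with the comparison against WT, so the changes in the 2 comparisons are not independent.

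Against WT, the libraries with the label Dp16/D-KO had a Tmem119 log2 change of -0.03 (95% interval -0.16 to 0.11) and a Ctss change of 0.16 (0.05 to 0.27, limma adjusted p = 0.135), with 5 of 6 libraries above all WT libraries for Ctss. C1qb had a change of 0.13 (0.01 to 0.26, adjusted p = 0.312). No microglial gene was called (2 at an unadjusted p under 0.05), beside 1.28% of all genes. Over all genes, 1921 of 13971 had an unadjusted p under 0.05 in limma. Trem2 stood at -0.20, P2ry12 at -0.14, Aif1 at 0.11, C1qc at 0.09, Cx3cr1 at -0.08, Csf1r at 0.07 and C1qa at 0.01. Without WT F1 and M3 the change of Tmem119 was -0.01 (adjusted p = 0.962) and that of Ctss 0.18 (adjusted p = 0.143). The WT libraries are those of the comparison with Dp16.

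In the libraries with the label Dp16;D-KO/K-KO, Tmem119 RPKM was 9.0 in F1, 8.88 in F2, 8.46 in M1, 9.97 in M2 and 9.16 in M3. Ctss RPKM was 35.20, 39.60, 48.42, 44.63 and 37.44 in the same libraries, the widest spread of any group. The 2 highest values belong to M1 and M2, both of batch 1. Against Dp16 the log2 change of Tmem119 was 0.19 (95% interval 0.06 to 0.31, limma adjusted p = 0.272) and that of Ctss -0.02 (-0.12 to 0.08), with no microglial gene called (1 at an unadjusted p under 0.05) beside 0.0358% of all genes. Over all genes, 1573 of 13971 had an unadjusted p under 0.05 in limma. Trem2 stood at -0.17, Csf1r at 0.11, P2ry12 at -0.07, Aif1 at 0.07, C1qc at -0.05, C1qa at -0.04, Cx3cr1 at -0.01 and C1qb at 0.01. Against WT, Ctss had a change of 0.22 (0.11 to 0.33, adjusted p = 0.0585), Csf1r one of 0.13 (0.01 to 0.25, adjusted p = 0.456) and Tmem119 one of -0.08 (-0.22 to 0.06), and again none of the 10 was called (2 at an unadjusted p under 0.05), beside 0.752% of all genes. The others ran from -0.19 in Trem2 through -0.08 in P2ry12, -0.04 in C1qa, 0.06 in C1qc, 0.07 in Aif1 and 0.10 in Cx3cr1 to 0.12 in C1qb. Over all genes in this comparison with WT, 1374 of 13971 had an unadjusted p under 0.05 in limma. Ctss was called on leaving out WT F2 (adjusted p = 0.0328), WT M3 (0.0256) or Dp16;D-KO/K-KO F1 (0.0259), and not without WT F1 and M3 together (0.24, adjusted p = 0.0944). In the authors' deposited table the log2 fold change of Ctss against WT was 0.24 in Dp16;D-KO/K-KO (adjusted p = 0.000484) and 0.20 in Dp16/D-KO (adjusted p = 0.00715), both under a threshold of 0.05 that neither met in the limma test.

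The libraries with the 2 knockout labels were compared with each other, a comparison that by label differs in Kcnj6, whose own level did not differ detectably (log2 change -0.02, limma adjusted p = 0.966). No gene of the table was called in this comparison (0% of 13971, with 1260 at an unadjusted p under 0.05 in limma), and none of the 10 microglial genes had an unadjusted p under 0.05. Their log2 changes ran from -0.05 in Tmem119 and C1qa to 0.18 in Cx3cr1 (95% interval of Cx3cr1 -0.00 to 0.36). Ctss, P2ry12 and Csf1r stood at 0.06, Trem2 at 0.01, C1qb at -0.01, C1qc at -0.02 and Aif1 at -0.04.

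When the 3 groups that carry the duplication were set together against WT, Ctss was the 1 microglial gene called, with a log2 change of 0.21 (SE 0.04, 95% interval 0.12 to 0.29, limma adjusted p = 0.0119), beside 1.16% of all genes. It was 0.26 within batch 1 (adjusted p = 0.0694) and 0.17 within batch 2 (adjusted p = 0.403), and it was not called without WT F1 (0.0818) or without WT M4 (0.0732). Tmem119 stood at -0.12 (-0.23 to -0.01, adjusted p = 0.323) and C1qb at 0.12 (0.02 to 0.22, adjusted p = 0.29). Trem2 stood at -0.14, C1qc at 0.09, P2ry12 at -0.08, Csf1r at 0.07, Aif1 at 0.06, Cx3cr1 at 0.04 and C1qa at -0.01. Without WT F1 and M3 the change of Ctss was 0.22 (adjusted p = 0.0452) and that of Tmem119 -0.11 (adjusted p = 0.555).

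The ratio of Ctss to Tmem119 RPKM, chosen after both values were seen and given as a description, was 3.66 ± 0.265 in WT (3.35 to 3.97, n = 5) and 5.23 ± 0.675 in Dp16 (4.38 to 6.53, n = 7). It was 4.20 ± 0.298 in the libraries with the label Dp16/D-KO (3.64 to 4.44, n = 6) and 4.53 ± 0.709 in those under the label Dp16;D-KO/K-KO (3.91 to 5.72, n = 5). All 7 Dp16 libraries lay above all 5 WT libraries, and the groups with the 2 knockout labels overlapped both. Without WT F1 and M3 the WT ratios ran from 3.35 to 3.90. Within batch 1 the ratio was 3.70 in WT and 5.73 in Dp16, and within batch 2 it was 3.63 and 4.86.

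**Figure D3:**
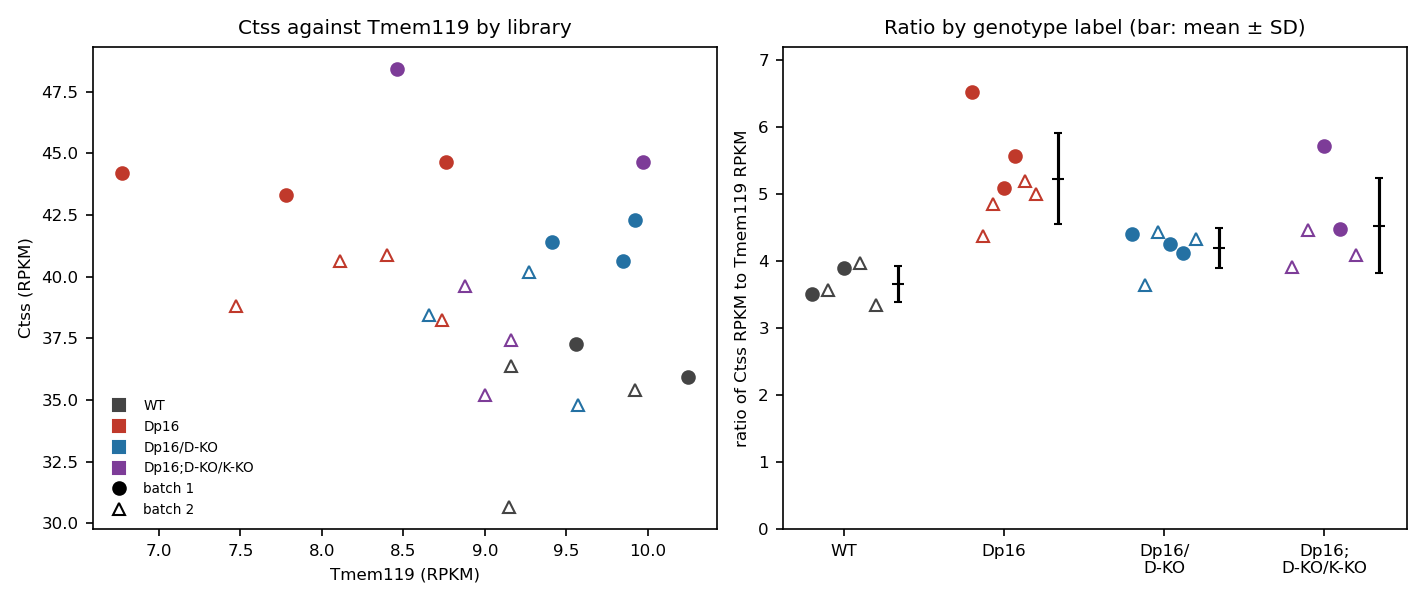
Left, Ctss RPKM (vertical axis) against Tmem119 RPKM (horizontal axis) in each of the 23 libraries, coloured by genotype label with circles for batch 1 and triangles for batch 2; the axes do not start at 0. Right, the ratio of the pair in each library with the group mean ± SD, where Dp16 sits between 4.38 and 6.53 and WT between 3.35 and 3.97.

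The widest differences among the microglial genes lay between batches and not between genotype labels. P2ry12 RPKM was 8.92 ± 1.22 in batch 1 (n = 10) and 13.2 ± 1.60 in batch 2 (n = 13), a log2 change of 0.51 (SE 0.07, limma adjusted p = 1.46e-05). C1qc rose from 28.5 ± 2.38 to 37.9 ± 4.79 RPKM (0.42, adjusted p = 3.13e-05) and Cx3cr1 from 9.84 ± 1.12 to 12.6 ± 1.58 RPKM (0.30, adjusted p = 0.000456). C1qb (0.17) and Csf1r (0.10, adjusted p = 0.0408) were also higher in batch 2, though Csf1r was called in 16 of 32 alternatives and in 9 of the 23 that leave out 1 library, and Ctss was lower (-0.16, adjusted p = 0.000926). Tmem119, Aif1, C1qa and Trem2 were not called, with changes of -0.02, 0.01, 0.06 and -0.10.

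These 6 calls among 10 genes stand beside 49.4% of all genes called between the batches. For P2ry12 and for C1qc, 12 of the 13 libraries of batch 2 lay above all 10 of batch 1, and the exception was WT M3, with 9.35 and 29.63 RPKM. WT M3 also had 8.90 RPKM of Cx3cr1, inside the range of batch 1. The batches differ in the labelled molecule, the strain background and the protocol text, which cannot be told apart. Because every group has libraries in both batches and batch stood in the model, the comparisons of genotypes above are taken across it. WT M3 entered that model under its label of batch 2, and whether this label is right was not tested.

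**Figure D4:**
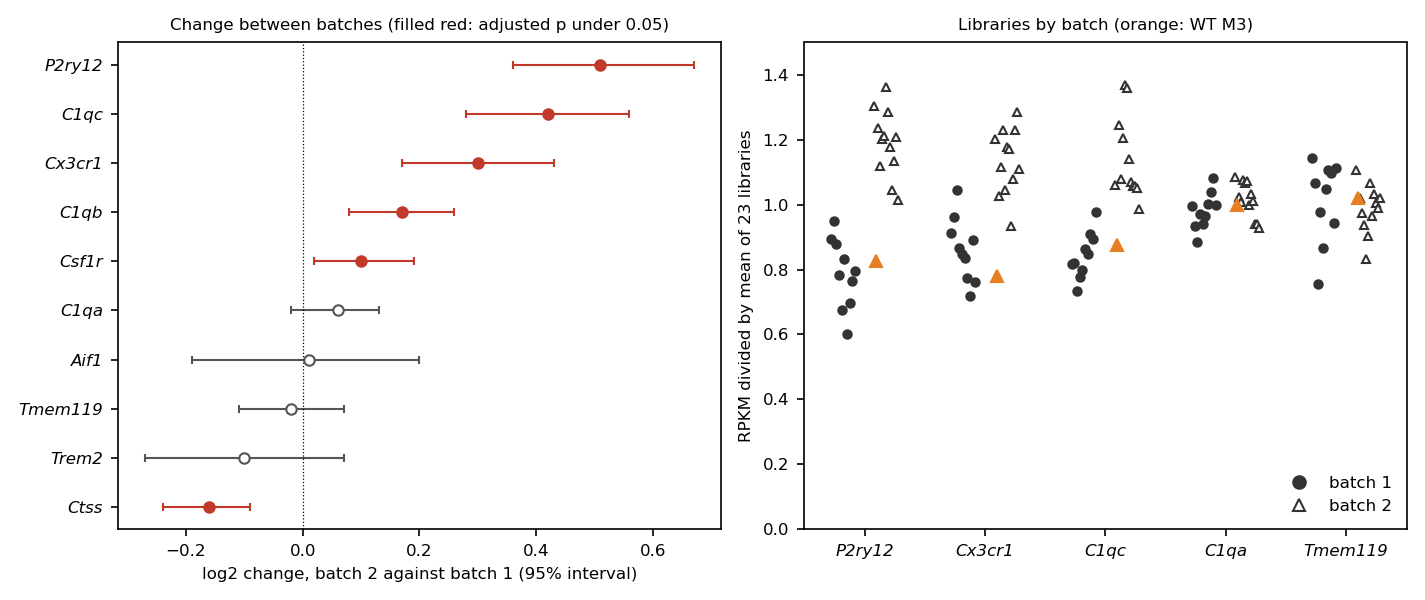
Left, the log2 change of each gene from batch 1 to batch 2 (horizontal axis, with its 95% interval), filled red where the adjusted p was under 0.05; P2ry12 stands highest at 0.51 and Ctss lowest at -0.16. Right, the level of 5 of the genes in each library divided by the mean of the 23 libraries, with circles for batch 1, triangles for batch 2 and WT M3 in orange, which lies among the libraries of batch 1 for P2ry12, Cx3cr1 and C1qc.

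The C1q chains join into 1 protein and their genes lie side by side, with C1qb at chr4:136880145-136886177, C1qc at chr4:136888838-136892932 and C1qa at chr4:136895916-136898844 (mm10). The ratio of C1qa to C1qb RPKM was 1.05 ± 0.0737 over the 23 libraries (0.901 to 1.17). In WT it was 1.12 ± 0.0369 (1.09 to 1.17), in Dp16 1.04 ± 0.0756, in the libraries with the label Dp16/D-KO 1.04 ± 0.0604 and in those under the label Dp16;D-KO/K-KO 1.00 ± 0.0762, and no test of the ratio was made. The ratio of C1qc to C1qb was 0.762 ± 0.0402 in batch 1 and 0.910 ± 0.0949 in batch 2. Between batches the log2 change of C1qc was 0.42, beside 0.17 in C1qb and 0.06 in C1qa.

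After genotype, batch and letter were removed, the 10 genes varied together only in part. Over 23 libraries, 29 of 45 pairs had a positive Pearson correlation of the residuals, with a median of 0.17 and a range of -0.51 to 0.70. The 6 pairs above 0.5 were C1qa with C1qb (0.70), P2ry12 with C1qc (0.65), C1qa with C1qc (0.64), C1qb with C1qc (0.61), P2ry12 with Cx3cr1 (0.61) and Ctss with Csf1r (0.58). The lowest value was that of P2ry12 with Csf1r (-0.51). Tmem119 and Ctss, the genes called in Dp16, had a correlation of -0.14. These correlations are over libraries that share depth and preparation, and they are given as a description.

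**Figure D5:**
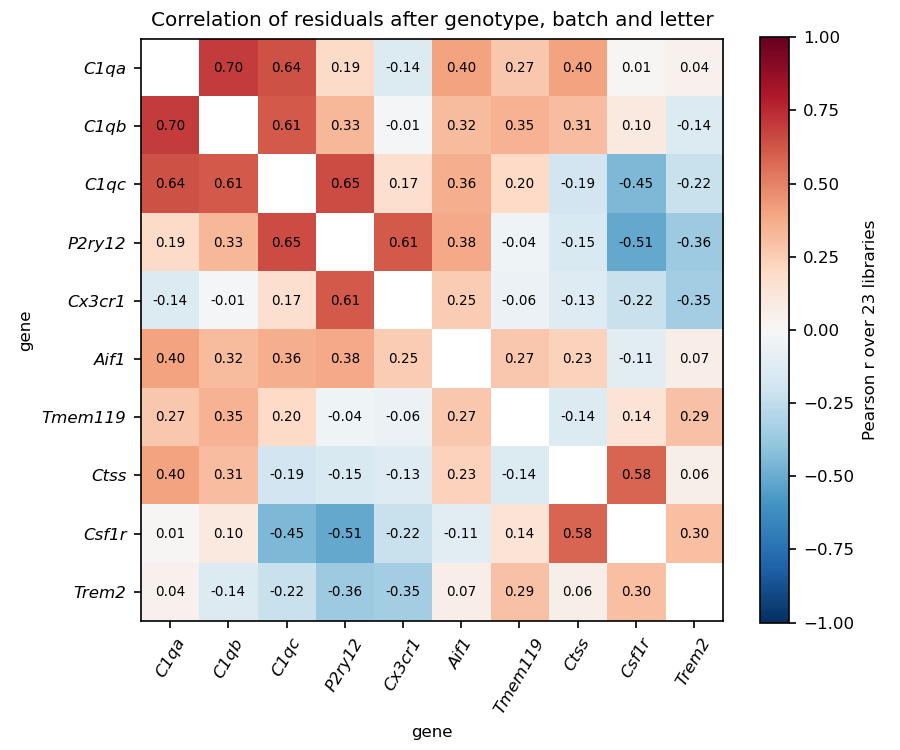
Pearson correlation of the residuals of each pair of genes over the 23 libraries after genotype label, batch and letter were removed, with red for positive and blue for negative values on a scale from -1 to 1. The C1q chains form a block of 0.61 to 0.70, and P2ry12 joins C1qc (0.65) and Cx3cr1 (0.61) but not Csf1r (-0.51).

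The gene closest to the mean of the other 9 was C1qa (0.57), followed by Aif1 (0.56) and C1qb (0.55), and Csf1r (-0.14) and Trem2 (-0.13) stood apart. Of 12923 other genes with a mean RPKM of at least 1, those most like the mean of the 10 were Clec2d, Rtraf and Gnptg (0.77 each), Shisa5 (0.76), and Cd209c and A430005L14Rik (0.75 each). Homeostatic genes of microglia other than the 10 had a median correlation of 0.27 with that mean (16 genes, -0.15 to 0.59) and pan-myeloid genes one of 0.38 (13 genes, -0.01 to 0.65). The median over all 12923 genes was 0.06. Some lists of other cell types reached the same size. Meningeal fibroblast markers had 0.40 (6 genes), red blood cell markers 0.34 (5 genes) and astrocyte markers 0.28 (7 genes). Lower medians were those of choroid plexus (0.24), pericyte (0.17), oligodendrocyte (0.10), neuron (0.07) and border-associated macrophage markers (0.05). Lowest were endothelial (-0.03) and oligodendrocyte precursor markers (-0.08).

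Other genes of microglia were read from lists chosen with earlier results of these data known. Over all genes in Dp16 against WT, 1928 of 13971 had an unadjusted p under 0.05 in limma, to set beside the counts of each list. In Dp16 against WT none of the 16 other homeostatic genes was called (1 at an unadjusted p under 0.05) and 4 had a positive change, the median being -0.07. The 2 with the smallest p were Csf3r, a receptor of a granulocyte growth factor (-0.23, limma adjusted p = 0.208), and Lag3, an immune checkpoint receptor (0.29, adjusted p = 0.372). Of 14 pan-myeloid genes 12 had a positive change (median log2 change 0.10) and none was called (3 at an unadjusted p under 0.05), and among them were Spi1, the gene of PU.1 (0.34, adjusted p = 0.285), and Ptprc, the gene of CD45 (0.33, adjusted p = 0.285).

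Of 17 genes known from activated microglia, 10 reached a mean RPKM of 0.5 and were tested. Of the 7 that did not, Ccl4 and Il1b had a lower mean RPKM in Dp16 than in WT. Cst7, Itgax, Clec7a, Ccl3 and Tnf had a higher one. All 10 tested had a positive change in Dp16, with a median of 0.18 and none called (2 at an unadjusted p under 0.05). Gpnmb, a glycoprotein of activated phagocytes, was 1.26 ± 0.195 RPKM in WT (1.03 to 1.5) and 1.75 ± 0.231 in Dp16 (1.52 to 2.07). Its groups did not overlap, as in 0.837% of all genes, and its log2 change was 0.45 (95% interval 0.19 to 0.70, limma adjusted p = 0.0747). Lgals3, the gene of galectin-3, was 0.728 ± 0.329 RPKM in WT and 1.20 ± 0.338 in Dp16 (log2 change 0.71, adjusted p = 0.281). Against Dp16, the libraries with the label Dp16/D-KO had a positive change in 2 of these 10 genes, with a median of -0.17 and none called (2 at an unadjusted p under 0.05). In the same comparison all 7 oligodendrocyte markers had a negative change (median -0.45, 7 at an unadjusted p under 0.05, none called), with sums of 1230 to 2600 RPKM against 2150 to 3160 in Dp16, and the median of 6 choroid plexus markers was -1.17. The part of either in the values of the microglial genes was not tested.

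Cathepsins and their cystatin inhibitors other than Ctss had a positive change in 11 of 13 genes in Dp16 against WT, with a median of 0.07 and none called (3 at an unadjusted p under 0.05). Legumain (Lgmn), a lysosomal protease, stood at 0.21 (limma adjusted p = 0.177) and Ctsa at 0.13 (adjusted p = 0.184). Of 16 genes of the complement cascade beyond C1q, 11 had a positive change (median 0.06) and none was called (1 at an unadjusted p under 0.05). C4b, which the C1 complex cleaves, stood at 0.36 (adjusted p = 0.124) and C1ra, the gene of a protease of that complex, at 0.33 (adjusted p = 0.362). Of 11 genes of TREM2 signalling 4 had a positive change (median -0.06) and none was called (4 at an unadjusted p under 0.05). Plcg2, a phospholipase downstream of the receptor, stood at -0.27 (adjusted p = 0.237) and Pik3cd at -0.21 (adjusted p = 0.217). Ligands and signalling of CSF1R (7 genes tested, median 0.04) and of fractalkine and purines (8 genes, median -0.04) had none called (2 and 0 at an unadjusted p under 0.05). Ccnd1, a cyclin, stood at -0.18 (adjusted p = 0.217) and Nt5e, which makes adenosine, at 0.32 (adjusted p = 0.374).

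Of 11 listed genes of the duplicated segment that act in microglial responses, 8 were tested. Runx1 stayed under the filter (0.242 ± 0.0460 RPKM in WT, 0.256 ± 0.0812 in Dp16), and Mx1 and Mx2 had no values. All 8 that were tested were called higher in Dp16 against WT, beside 1.45% of all genes called, with a median log2 change of 0.57. They were the interferon receptor genes Ifnar2 (0.87), Ifngr2 (0.62) and Ifnar1 (0.58), the interleukin-10 receptor gene Il10rb (0.55, limma adjusted p = 0.0436), App (0.66), the gene of the amyloid precursor protein, Tiam1 (0.57), and the transcription factor genes Bach1 and Ets2 (0.51 each). They carry the extra copy, so their direction is the design's own.

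The genes around Tmem119 and Ctss were looked at for changes that reach beyond 1 gene. Of 9 genes within 250 kb of Tmem119, 8 were tested and none was called in Dp16 against WT (0 at an unadjusted p under 0.05), with log2 changes of -0.14 to 0.04. The lowest was Selplg (-0.14, limma adjusted p = 0.384), the gene of a selectin ligand that microglia also express. Of 15 genes within 250 kb of Ctss, 13 were tested and none was called. Of these 13, 5 had an unadjusted p under 0.05 in limma, beside 1928 of all 13971 genes. Changes ran from -0.21 in Setdb1 (adjusted p = 0.0574) to 0.44 in Ctsk (adjusted p = 0.322), the gene of cathepsin K. Of the 5, Setdb1, Arnt (-0.17) and Mindy1 (-0.15) were lower, and Ctsk and Ecm1 (0.28, adjusted p = 0.124) were higher.

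Markers of other cell types that share some of these genes were read beside the 2 calls. Of 9 markers of border-associated macrophages 5 reached a mean RPKM of 0.5, and their sum over the 9 was 6.24 to 7.77 RPKM in WT and 4.63 to 7.65 in Dp16. Cd163, Lyve1, Ms4a7 and Cd209f stayed under that mean. All 5 tested had a negative change in Dp16, with a median of -0.14 and none called (1 at an unadjusted p under 0.05), led by Pf4 (-0.65, limma adjusted p = 0.228). None of 10 blood leukocyte markers reached a mean RPKM of 0.5, and their sum ran from 0.340 to 3.96 RPKM in WT and from 0.690 to 2.24 in Dp16. Choroid plexus markers varied most, with sums of 17.3 to 2420 RPKM in WT (median 1540) and 32.0 to 3650 in Dp16 (median 104). Of 6 meningeal fibroblast markers 4 had a positive change (median 0.05) and none was called (1 at an unadjusted p under 0.05). Among them Dcn, the gene of the matrix protein decorin, was 24.4 ± 3.31 RPKM in WT and 33.8 ± 6.99 in Dp16 (0.46, adjusted p = 0.0809), and it was called against WT in Dp16/D-KO (0.61, adjusted p = 0.0199) and in all carriers (0.49, adjusted p = 0.026). The part of any of these in the changes of Tmem119 and Ctss was not tested.

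No microglial gene was called between libraries with the letter M and those with F, beside 0.0429% of all genes. At an unadjusted p under 0.05 in limma were 2 of the 10, beside 1281 of all 13971 genes. WT F1 and WT M3 kept their letters in every test of letters, though Ddx3y did not match them. No test of letters was made without both libraries. The lowest values were those of Cx3cr1 (-0.18, 95% interval -0.31 to -0.05, limma adjusted p = 0.427) and P2ry12 (-0.17, -0.33 to -0.02, adjusted p = 0.503). Aif1 stood at -0.15, Csf1r at -0.08, Tmem119 and Trem2 at 0.00, Ctss and C1qa at 0.03, and C1qb and C1qc at 0.07. In none of the 10 genes was a difference of the Dp16 effect called between batches or between letters, beside 0% of all genes. At an unadjusted p under 0.05 in limma were 0 and 1 of the 10, beside 468 and 554 of 13991 genes. The 1 was Trem2 between letters (log2 difference -0.48, 95% interval -0.95 to -0.02, limma adjusted p = 0.984). Intervals of these differences were wide, as for Aif1 between batches (0.47, -0.11 to 1.06).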

How the data were processed

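Messenger RNA of mouse hippocampus was measured in 23 libraries. The deposited table holds RPKM per gene and library, computed by the authors, with sums of 353904 to 373054 per library. It also holds the log2 fold change, p-value and adjusted p-value of each comparison as deposited by the authors, by a test the sources used here do not name. Reads were aligned with HISAT to mm10, per the submitters' processing notes. The sources used here do not state the counting step, so reads of overlapping genes and related sequences cannot be told apart.

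Tests used log2(RPKM + 0.1), so fold changes of low genes are understated. The 13971 genes with a mean of at least 0.5 were tested with limma 3.58.1 in R 4.3.3, with 1 coefficient per group of 4, covariates for batch and sex letter, a trend in the spread and Benjamini-Hochberg adjustment over all genes tested, called under 0.05. Intervals are 95% and not adjusted. Depth came from 385 genes of low level, whose values fell within 0.15 read of whole reads in 43.2% to 58.7% of cases (30% by chance at a fixed depth), and counting errors cover counting only.

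The rule named all 10 members in every comparison of genotypes, batches and letters. It also named the 6 genes most like their mean, the called members of each list, of which those called only between batches are not given, and, in Dp16 against WT, the 2 with the smallest p of each list, of which those of the microglial lists are given. Of the genes near a called member, the lowest or highest are given, and near Ctss those with an unadjusted p under 0.05. The members and lists were chosen with earlier results of these data known. Alternatives were the pseudocount, the filter, the covariates, rescaling, the trend, a replicate block, single batches, the groups in the fit and leaving out libraries.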

Additional observations from a re-analysis of the deposited data

Results flagged for a closer look

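Ctss in WT M4 was 30.65 RPKM, the lowest of its group and far from the nearest WT library at 35.4 RPKM (gap over range 0.720, n = 5). It was the 1 value so far from its group among 40 combinations of a gene and a group, and chance flags about 1 group in 20. Without this library, Ctss in Dp16 against WT was still called, and Ctss in all carriers against WT was not (limma adjusted p = 0.0732).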

How the results depend on the processing

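Of the 10 microglial genes, 2 were called in Dp16 against WT. This became 0 with no batch covariate, 0 in batch 1 alone, 0 in batch 2 alone, 0 with the 2 groups alone in the fit, 1 (Ctss) without WT F1 and M3, and 1 (Ctss) with the replicate block. Leaving out 1 library at a time gave 0 to 2, with 0 without WT F1 and 1 (Ctss) without WT F2, Dp16 M2 or Dp16 M3. In Dp16;D-KO/K-KO against WT the count of 0 became 1 (Ctss) with rescaled libraries, and 0 to 1 on leaving out 1 library, with 1 without WT F2, WT M3 or Dp16;D-KO/K-KO F1. In all carriers the count of 1 became 0 with no batch covariate and within either batch, and 0 to 1 on leaving out 1 library, with 0 without WT F1 or WT M4. Between batches 6 became 0 with the replicate block, which leaves batch nearly fixed by the labels, and was 5 without WT F1 and M3, 7 (with C1qa) with rescaled libraries and 5 to 6 on leaving out 1 library, as Csf1r lost its call without any 1 of 14 libraries. The cause of these changes in the counts was not tested.

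The log2 change of Tmem119 in Dp16 against WT ran from -0.37 to -0.21 over 36 alternatives and was called in 26, and that of Ctss from 0.20 to 0.27 and was called in 31. No called value changed its direction. The count over all genes in that comparison was 202, but 97 with no batch covariate, 95 without WT F1 and M3, 49 and 65 within batches, 93 with the 2 groups alone and 116 without WT F1. Within a batch, libraries of different groups sharing a replicate label had residuals that correlated by -0.0439 on average (26 pairs, 6 over 0.1). Those with another label of the same letter correlated by -0.112 (26 pairs, 3 over 0.1). Whether the replicate numbers pair the libraries was not tested. Depth limits Aif1 most, with an estimated median of 39 reads.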
